A study of Mus musculus with 9 samples.

Results

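The genes described here are 10 members of 3 calcium- and sugar-binding protein families: the S100 genes S100a4, S100a6, S100a10, S100a11 and S100a13, the annexin genes Anxa1, Anxa2 and Anxa6, and the galectin genes Lgals1 and Lgals3. They were chosen by name as genes typical of effector differentiation, and are 10 of the 55471 gene identifiers in the count files. The libraries are RNA sequencing of mouse CD8+ T cells carrying OT-I, a transgenic receptor for a peptide of ovalbumin. Control cells (4 libraries) were Bdh1-WT and carried shCtrl, a short hairpin RNA against firefly luciferase. DKO cells (5 libraries) were Bdh1-KO and carried shOxct1, a hairpin against Oxct1, so the groups differ in a genotype and in a hairpin at the same time. All cells were activated in culture with antibodies to CD3ε and CD28 and with IL2, transduced, and sorted for the Ametrine reporter. They then went into C57BL/6 (CD45.1) mice, which were later infected with LmOVA, that is Listeria monocytogenes carrying ovalbumin. The cells were sorted again by CD45.2 and Ametrine on day 7. The labels do not give the age or sex of the mice, the kind of Bdh1 knockout, or whether the libraries of a group come from separate mice. The p-values therefore measure only the spread between these libraries, which may be technical.

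S100 proteins are small proteins with paired EF-hand loops that, in most members, change shape on binding calcium and then dock onto partner proteins. Annexins bind acidic phospholipids of membranes in the presence of calcium, and several of them pair with a particular S100 protein: Anxa2 with S100a10, and Anxa1 with S100a11. Galectins are lectins for β-galactosides that act inside the cell and, after leaving it without a signal peptide, on glycoproteins at the surface. Many transcripts of these families are known to increase when a naive CD8+ T cell becomes an effector cell.

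The comparison asks whether loss of the ketone body enzymes Bdh1 and Oxct1 changes the level of these transcripts in effector cells. None of the 10 members passed an adjusted p of 0.05 (quasi-likelihood test of edgeR, Benjamini-Hochberg adjustment over all genes), where 2.83% of the 14918 genes tested did. At an unadjusted p under 0.05 there were 2 members, Anxa1 with a positive and S100a4 with a negative difference, that is 2 of 10 where 16.0% of all genes tested did so. DESeq2 called 0 of the members, where it called 7.88% of all genes with an adjusted p. Anxa1 was the 1 member called by limma-voom (6.68% of all genes), with 1 surrogate variable (8.37%) and without control replicate 1 (4.93%). All 10 members were tested, and the CPM (counts relative to library size) of the groups overlapped for each of them, while they did not overlap for 8.71% of all genes. The median log2 fold change of the members, DKO over control, was -0.11 with a range of -0.38 to 0.35, and the median over all genes was -0.01. The members' median was 0.01 without control replicate 1 and 0.02 with the length trend of each library removed, so its sign turns with that library. The median size of the difference, regardless of sign, was 0.14 for the members and 0.18 for all genes. The number of genes called over the whole table moved with single libraries. It was 422 with all libraries, 749 without control replicate 1, 187 without control replicate 4, and 179, 280, 180, 221 and 228 without DKO replicates 1 to 5 in turn.

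**Figure D1:**
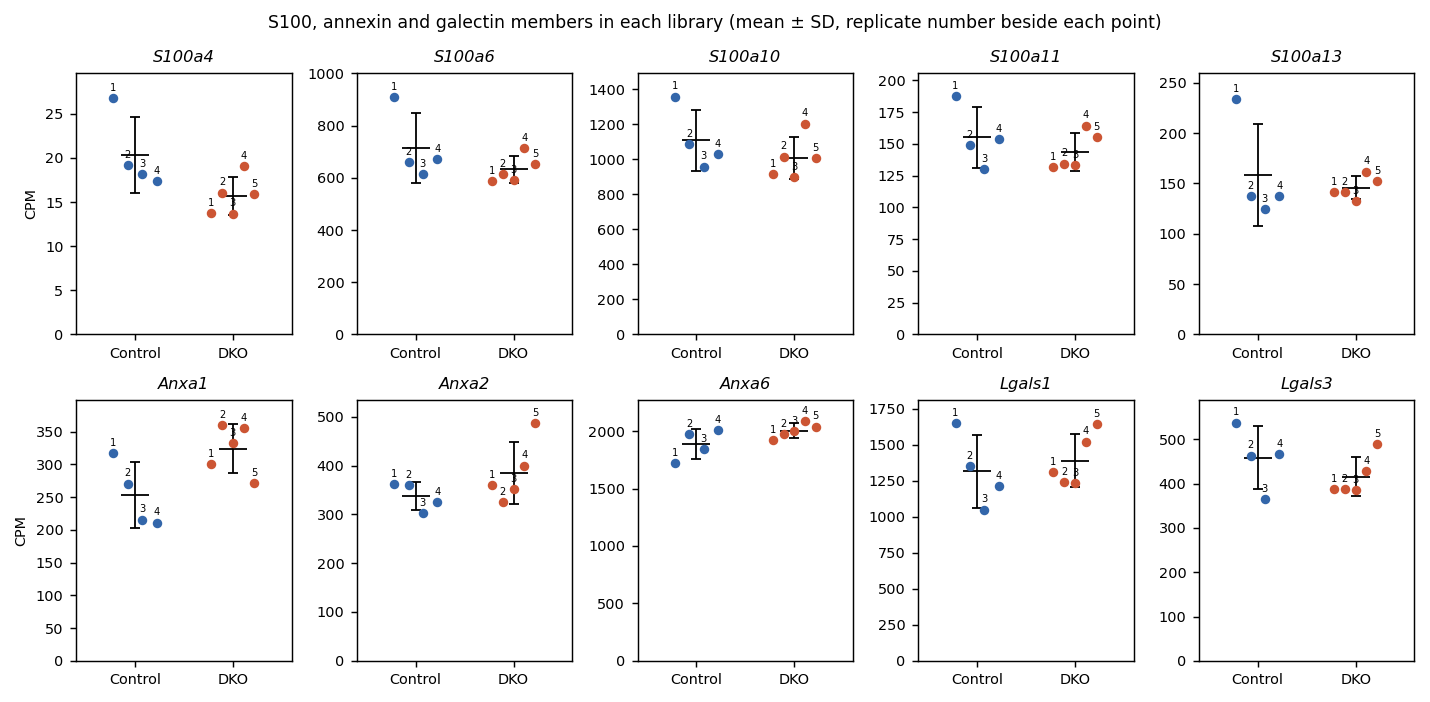
CPM of the 10 members (vertical axes, from 0, 1 panel per gene) in the 4 control libraries (blue) and 5 DKO libraries (orange), with replicate numbers beside the points and mean ± SD in black. The groups overlap in every panel, and control replicate 1 is the highest of all 9 libraries for 7 of the 10 genes.

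Each library held 45205993 to 59853080 counts in genes. The targeted genes followed the labels: Oxct1 was at 59.2 to 71.5 CPM in the control libraries and at 4.61 to 5.51 CPM in DKO, and Bdh1 at 25.1 to 35.1 and 8.98 to 11.6 CPM. Of the 7 CD8+ T cell markers, all exceeded 1 CPM on average, with a summed level of 6244 to 8385 CPM in control and 5680 to 6281 CPM in DKO. Cd8b1, a chain of the CD8 coreceptor, was at 2036 to 2648 CPM in control and at 1550.01 to 1836 CPM in DKO, and was the 1 gene of that list past the threshold (adjusted p 0.0428, edgeR). Cd8a, the other chain, averaged 719 CPM in control and 716 CPM in DKO (adjusted p 0.973, edgeR). Thy1 was higher in DKO, with means of 162 and 178 CPM (adjusted p 0.759, edgeR). Cd3e, Cd3d, Cd3g and Trac had lower means in DKO (adjusted p 0.223 to 0.518, edgeR). Cd4 was at most at 0.663 CPM. The myeloid list, which matters here because phagocytes hold much S100, annexin and galectin RNA, summed to 167 to 202 CPM in control and 118 to 130.1 CPM in DKO. Of its 14 genes, 9 had a mean above 1 CPM. Among them Ctss (81.2 and 51.3 CPM in control and DKO) and Cd68 (29.2 and 16.8 CPM) passed the threshold (adjusted p 0.00734 and 0.0138, edgeR). Lyz2, a defining myeloid gene, was at 1.47 to 3.41 CPM in control and 2.81 to 13.6 CPM in DKO. S100a8 had 0 counts in control and 31 over the DKO libraries, and S100a9 had 2 and 25. Itgam averaged 58.9 CPM in control and 38.1 CPM in DKO (adjusted p 0.148, edgeR), and Tyrobp 3.19 and 2.40 CPM. Means were 1.84 and 2.37 CPM for Csf1r, 1.04 and 1.01 for Adgre1, 1.13 and 1.21 for C1qa, and 1.74 and 1.63 for Fcer1g. The myeloid genes thus did not all move in the same direction. The summed levels in control and DKO were 183 to 270.1 and 191 to 214 CPM for the B cell list, led by Ighm, with Pax5 at 0 counts throughout. They were 10.3 to 34.3 and 15.9 to 53.5 CPM for the erythroid and platelet list, and 30.7 to 39.3 and 34.6 to 46.6 CPM for the CD4 T cell list. Of these 3 lists, 3 of 8, 5 of 6 and 2 of 4 genes exceeded 1 CPM on average. The part of these cells in the values of the members was not tested. In such bulk libraries, fewer cells of a type and less RNA per cell cannot be told apart.

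Control replicate 1 stands apart from the other libraries, at -79.1 on the first principal component of log2 CPM where the others lay between -7.25 and 23.5, and it bears on most of the members. It was the highest of the 9 libraries for all 5 S100 members and both galectin members, and for 28.3% of all genes tested. It also differed from the other controls by gene length. Its log2 CPM exceeded the mean of control replicates 2 to 4 by a median of 0.48 among 1978 genes with under 1000 bp of exons, and by 0.37 among 1956 genes of 1000 to 2000 bp. The median was -0.44 among 2041 genes of over 8000 bp. Of the members, 7 have under 2000 bp of exons, from 511 bp for S100a11 to 1858 bp for Lgals3. For these 7 the difference of control replicate 1 from the other controls was 0.33 to 0.82, largest for S100a13. It was 0.46 for Anxa1 (2911 bp), 0.14 for Anxa2 (3731 bp) and -0.17 for Anxa6 (2930 bp), where the median of genes of 2000 to 4000 bp was 0.10. For this reason the result of each member is given with all libraries and without control replicate 1. Control replicate 3 also stood apart, at -70.2 on the second component where the others lay between -5.59 and 20.2.

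**Figure D2:**
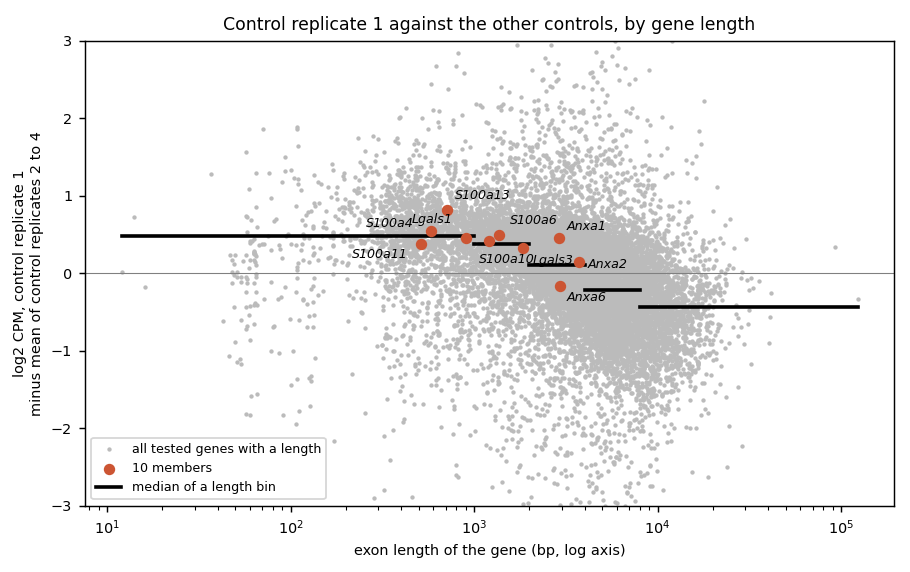
Log2 CPM of control replicate 1 minus the mean of control replicates 2 to 4 (vertical axis) against exon length in bp (log axis) for 14903 tested genes (grey), with medians of 5 length bins (black lines) and the 10 members (orange); 105 genes lie beyond the axis limit of 3 in either direction. Short genes sit higher in this library and long genes lower, from a bin median of 0.48 to one of -0.44, and 9 of the 10 members lie above 0.

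The promoters of 4 members are shown because Anxa1 and S100a4 had the smallest p in each direction, and because Anxa2 and S100a11 belong to the annexin and S100 pairs and carry a motif of AP-1, a factor induced by T cell receptor signals. Each sequence is the 150 bases before the gene's start in RefSeq, GRCm38.p6, 5′ to 3′ on the gene's strand. Capitals mark exact matches, on either strand, to the TATA box (TATAAA), the AP-1 site (TGAGTCA) and the GC box (GGGCGG). The windows are chr19:20390672-20390821 on the minus strand for Anxa1, and on the plus strand chr3:90603620-90603769 for S100a4, chr9:69453533-69453682 for Anxa2 and chr3:93520346-93520495 for S100a11.
Anxa1: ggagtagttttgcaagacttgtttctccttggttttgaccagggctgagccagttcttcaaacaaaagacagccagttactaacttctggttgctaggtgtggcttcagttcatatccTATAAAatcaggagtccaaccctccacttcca
S100a4: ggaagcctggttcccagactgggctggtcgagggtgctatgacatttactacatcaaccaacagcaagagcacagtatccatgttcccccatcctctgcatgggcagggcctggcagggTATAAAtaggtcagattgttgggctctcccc
Anxa2: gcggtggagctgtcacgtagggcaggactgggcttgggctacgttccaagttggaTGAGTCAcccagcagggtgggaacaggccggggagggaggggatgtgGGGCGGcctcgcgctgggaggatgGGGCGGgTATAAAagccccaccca
S100a11: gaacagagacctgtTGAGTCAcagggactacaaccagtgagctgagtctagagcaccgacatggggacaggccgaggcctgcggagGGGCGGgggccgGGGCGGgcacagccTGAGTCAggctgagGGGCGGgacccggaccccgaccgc

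A TATA box starts 32 bases before the RefSeq start of Anxa1, 31 bases before that of S100a4 and 17 bases before that of Anxa2. An AP-1 site starts 95 bases before the RefSeq start of Anxa2, and 136 and 38 bases before that of S100a11. The GENCODE coordinates given for the genes below differ from these starts. By GENCODE, the windows of Anxa1 and Lgals3 (chr14:47373710-47373859) lie inside the gene. Those of Anxa2, S100a6 and S100a11 run past the GENCODE start, which for Anxa2 is 69453620. Windows of 250 bases were available for 7 of the members, and S100a10, Anxa6 and Lgals1 had none. Of the 7, the TATA box was in 3 (Anxa1, Anxa2 and S100a4), the AP-1 site in 2 (Anxa2 and S100a11) and the GC box in 3 (Anxa2, S100a11 and Lgals3). Among 32851 such windows in the mouse genome, 12.4% held the TATA box, 4.46% the AP-1 site and 32.7% the GC box. A match describes the letters and not the binding of a factor.

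The annexins are described first, since the smallest p among the members was that of Anxa1. Anxa1 (ENSMUSG00000024659.15, protein-coding, minus strand of chromosome 19, 20373428 to 20390944 in GRCm38) encodes annexin A1, a protein known for restraining inflammation through formyl peptide receptors. Its level was 317, 271, 216 and 211 CPM in control replicates 1 to 4, and 301, 360.04, 332, 355 and 272 CPM in DKO replicates 1 to 5. Only control replicate 1 reached into the DKO range, and the next control value lay just below the lowest DKO value. Mean and SD were 254 ± 50.4 CPM over the 4 controls and 324 ± 37.5 CPM over the 5 DKO libraries. The log2 fold change was 0.35 (SE 0.13, 95% interval 0.06 to 0.64) and the adjusted p was 0.216 by the quasi-likelihood test of edgeR. Without control replicate 1 it was 0.47 (SE 0.11; edgeR, adjusted p 0.0313). The CPM of the groups then did not overlap, but only by 270.7 in control replicate 2 against 271.9 in DKO replicate 5. The share of all genes without overlap was not counted for that omission. Anxa1 also passed the threshold in limma-voom with quality weights (0.38, adjusted p 0.045) and with 1 surrogate variable (0.42, adjusted p 0.0208, edgeR). Over all 19 alternatives its log2 fold change ranged from 0.28 to 0.47 and its adjusted p from 0.0208 to 0.371. Without both control replicates 1 and 3 it was 0.42, short of the threshold.

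Anxa2 (ENSMUSG00000032231.14, plus strand of chromosome 9, 69453620 to 69491795) encodes annexin A2, which joins membranes to actin and holds S100a10 at the membrane. Control replicates 1 to 4 were at 362, 359.6, 303 and 326 CPM, and DKO replicates 1 to 5 at 359.3, 325, 352, 399.9 and 487 CPM. DKO replicate 5 was the highest library, and 3 of the 5 DKO values lay within the control range. In edgeR the log2 fold change was 0.19 (SE 0.12, adjusted p 0.473). It was 0.21 without control replicate 1 and 0.09 without DKO replicate 5. Anxa6 (ENSMUSG00000018340.13, minus strand of chromosome 11, 54979108 to 55033445) encodes the annexin with a duplicated core. It varied little between libraries, at 1721, 1972, 1843 and 2012 CPM in control and 1922, 1977, 2000.01, 2089 and 2039.8 CPM in DKO. Its log2 fold change was 0.09 (SE 0.07, 95% interval -0.06 to 0.24; edgeR, adjusted p 0.585), and 0.03 without control replicate 1. The upper limit of the Anxa6 interval with all libraries, 0.24, is above the median size of the difference over all genes, 0.18. An absence of a difference was therefore not shown.

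The S100 members lie in 2 groups on chromosome 3. S100a13, S100a4 and S100a6 fall within 109746 bp of one another, and S100a11 and S100a10 sit 28793 bp apart, further along the chromosome.

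S100a4 (ENSMUSG00000001020.8, plus strand, 90603771 to 90606045) encodes a protein that binds non-muscle myosin and is linked to cell motility. Its level was 26.7, 19.2, 18.2 and 17.4 CPM in control and 13.7, 16.1, 13.7, 19.1 and 15.9 CPM in DKO. DKO replicate 4 lay within the control range and the other DKO libraries lay below it. The log2 fold change was -0.38 (SE 0.15, 95% interval -0.71 to -0.05) with an adjusted p of 0.247 in edgeR. Without control replicate 1 it was -0.23 (SE 0.12; edgeR, adjusted p 0.315), a value smaller by more than 1.5 times. The counts of S100a4 cover only part of the gene. Of its exon bases, 51.7% are shared with exons of Gm42674 (named after its values were seen), a protein-coding model on the same strand that the count files list, and reads that fall in exons of more than 1 gene are left out of such counts. Gm42674 itself had 0 counts in every library. The level of S100a4 is therefore too low by an unknown factor, and only the difference between groups, from 651 to 1296 counts a library, can be read.

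S100a6 (ENSMUSG00000001025.8, plus strand, 90612882 to 90624181), also called calcyclin, is the next expressed gene along, 6837 bp from S100a4. It was at 910, 661, 614 and 670.04 CPM in control and at 588, 613, 592, 714 and 654 CPM in DKO. Control replicates 2 to 4 lay within the DKO range. Its log2 fold change was -0.18 (SE 0.11; edgeR, adjusted p 0.501), and without control replicate 1 it was -0.05 with a 95% interval of -0.20 to 0.10.

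S100a13 (ENSMUSG00000042312.9, plus strand, 90514435 to 90524581) encodes a protein that takes part in the release of proteins without a signal peptide. It was at 234, 138, 124 and 137 CPM in control and at 142, 142, 132, 162 and 153 CPM in DKO. Control replicate 1 was far above the other 3 controls, which lay between 124 and 138 CPM. In edgeR the log2 fold change was -0.12 (SE 0.17, adjusted p 0.780) with all libraries and 0.12 (SE 0.07, adjusted p 0.391) without control replicate 1, so its sign turns with that library. Without control replicate 3 it was -0.21.

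S100a10 (ENSMUSG00000041959.14, plus strand, 93555080 to 93564643) is the partner of annexin A2 and, unlike the other S100 proteins, does not need calcium to bind it. Its level was 1358, 1087, 958 and 1028 CPM in control and 916, 1016, 897, 1204 and 1006 CPM in DKO. The highest DKO library was replicate 4, and control replicates 2 to 4 fell within the DKO range. The log2 fold change was -0.14 (SE 0.12; edgeR, adjusted p 0.617), and -0.04 without control replicate 1. S100a11 (ENSMUSG00000027907.4, plus strand, 93520488 to 93526287), the partner of annexin A1, was at 187, 149, 129.999 and 154 CPM in control and 132, 135, 134, 164 and 155 CPM in DKO. Its log2 fold change was -0.11 (SE 0.11; edgeR, adjusted p 0.692). It was -0.02 without control replicate 1 and -0.18 without control replicate 3. Of the 50-base words in transcripts of S100a11, 41.1% also occur in 3 processed pseudogenes, among them Gm12854 (named after its values were seen) with 402 to 676 counts a library, so its counts leave out reads that map to more than 1 place and are uncertain.

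All 5 S100 members thus had a negative fold change with all libraries, at a median of -0.14, and none passed the threshold. Without control replicate 1 the median was -0.04, and with the length trend of each library removed it was -0.05. Over the 3 annexin members the median was 0.19, and it was 0.21 and 0.18 under the same changes.

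**Figure D3:**
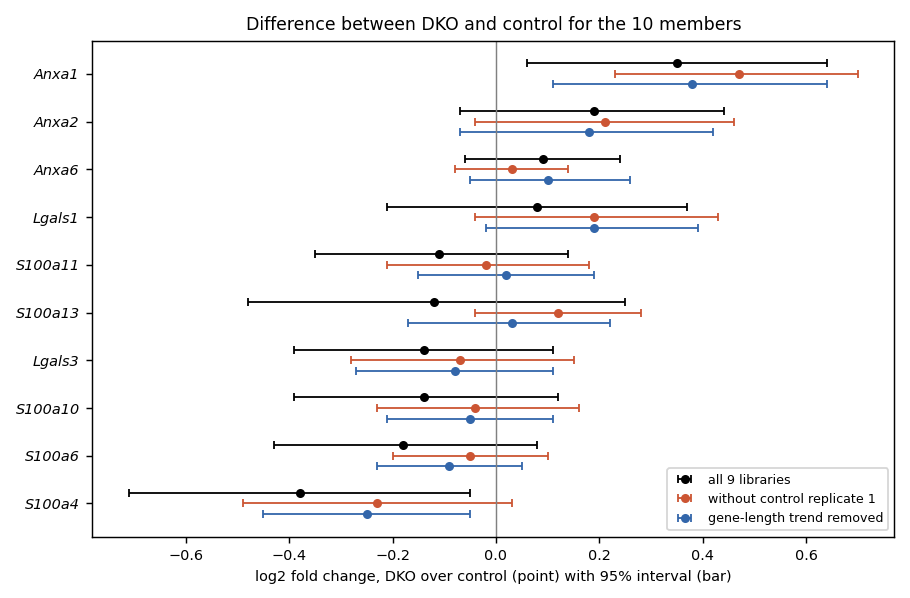
Log2 fold change of DKO over control (horizontal axis; points) with its 95% interval (bars) for the 10 members, from edgeR with all 9 libraries (black), without control replicate 1 (orange) and with the trend on gene length removed (blue). Without control replicate 1, 4 of the 5 S100 members move towards 0, S100a13 crosses it from -0.12 to 0.12, and the interval of Anxa1 moves from 0.06 to 0.64 to 0.23 to 0.70.

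Lgals1 (ENSMUSG00000068220.6, plus strand of chromosome 15, 78926725 to 78930465) encodes galectin-1, a dimeric lectin that limits T cell responses when it is secreted. It was at 1650.4, 1352, 1049.97 and 1214 CPM in control and at 1309, 1239, 1234, 1523 and 1644 CPM in DKO. The highest libraries of the groups were close to each other, and the lowest library was control replicate 3. In edgeR the log2 fold change was 0.08 (SE 0.13, adjusted p 0.819). It was 0.19 without control replicate 1 and -0.02 without control replicate 3. Lgals3 (ENSMUSG00000050335.17, plus strand of chromosome 14, 47367751 to 47386160) encodes galectin-3, which carries a collagen-like tail that lets it cross-link glycoproteins. It was at 538, 464, 365 and 467 CPM in control and at 388, 388, 386, 429 and 490.2 CPM in DKO. Control replicate 3 was the lowest library here as well, and the other 3 controls lay above 4 of the 5 DKO libraries. The log2 fold change was -0.14 (SE 0.11, 95% interval -0.39 to 0.11; edgeR, adjusted p 0.605). It was -0.07 without control replicate 1 and -0.23 without control replicate 3.

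The order of the levels was compared per length, as CPM per kilobase of exons (RPKM). Lgals1 was first at 1458 ± 282 RPKM in control and 1539 ± 204 RPKM in DKO, followed by S100a10 at 914 ± 144 and 831 ± 101 RPKM. Anxa6 came next at 644 ± 45.1 and 684 ± 21.6 RPKM, then S100a6 at 522 ± 97.3 and 462 ± 38.5 RPKM (SD, n = 4 and n = 5 for each). The ranges of Anxa6 and S100a6 overlapped in control, and those of Lgals1 and S100a10 did not overlap in either group. S100a11 (304 and 282 RPKM), Lgals3 (247 and 224 RPKM) and S100a13 (221 and 204 RPKM) formed a middle group in which neighbours overlapped. Anxa1 (87.1 and 111 RPKM) and Anxa2 (90.5 and 103 RPKM) followed, overlapping each other in both groups. S100a4 is left out of this order because of its shared exons. With the length of the principal transcript in place of all exons, Lgals1 and S100a10 stayed in front, but their ranges then overlapped, at 1312 to 2063 and 1398 to 1982 RPKM in control. S100a6 (976 RPKM in control) then came before Anxa6 (758 RPKM), and Lgals3 (323 RPKM) before S100a11 (304 RPKM). Anxa2 moved most, to 233 RPKM in control, before S100a13 (221 RPKM) and without overlap with Anxa1 (209 to 250.4 against 126 to 189.5 RPKM). Below the leading pair, the order therefore depends on the length used.

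The members differed from one another in how they moved across the 9 libraries. As a measure of likeness, each gene's log2 CPM was centred on its own mean and the root mean square (RMS) difference between genes was taken over the 9 libraries, whose depth and composition the genes share. S100a6 and S100a10 were the closest pair at 0.0587, and S100a6 and S100a11 were 0.0598 apart. Genes outside the list were nearer still. Among all genes, S100a10 ranked 26 by nearness to S100a6. In turn S100a6 ranked 5 for S100a10, 10 for S100a11, 92 for S100a4 and 276 for S100a13. Anxa1 was the member farthest from S100a4, S100a6, S100a10, S100a11 and Lgals3, at 0.285 to 0.395. Its nearest member was Lgals1 at 0.257, which ranked 1777 among all genes by nearness. For scale, the median distance from Anxa1 over all 14917 other genes was 0.382. The 3 genes nearest to Anxa1 were Traj59 (0.108), Tsc22d3 (0.109) and 5830432E09Rik (0.111). Tsc22d3 was at 261, 263, 218 and 190.1 CPM in control and 280.01, 296, 301, 319 and 280.2 CPM in DKO. Since it was picked for a profile like that of Anxa1 over these same libraries, its difference between the groups follows from the choice and is given with no test. The 5 S100 members shared high values in control replicate 1 and, to a lesser degree, in DKO replicate 4. The distances were not taken without control replicate 1 or with the length trend removed. The part of that library in the nearness of the S100 members was therefore not tested.

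**Figure D4:**
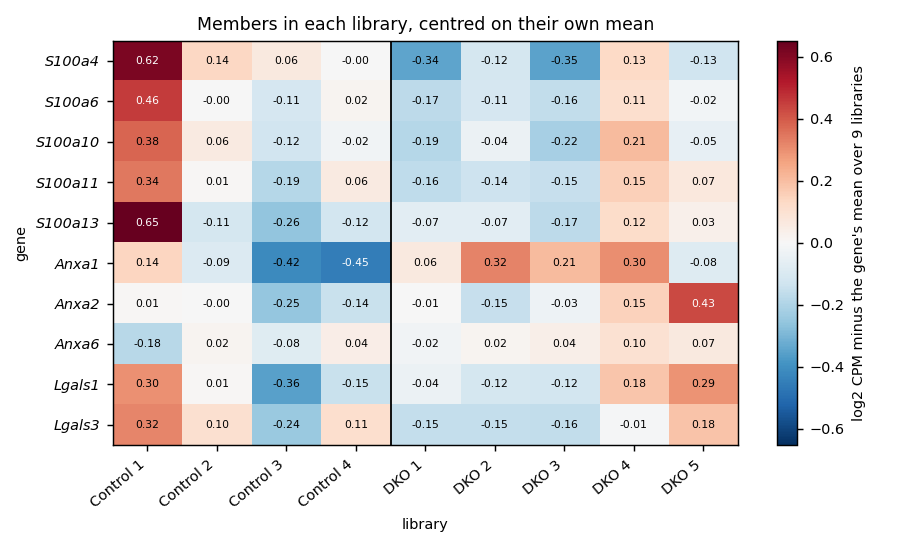
Log2 CPM of each member (rows) in each library (columns), minus the gene's mean over the 9 libraries; red is above and blue below the mean, with the value in each cell and a line between the groups. Control replicate 1 is red for the 5 S100 members and both galectins, while the row of Anxa1 is lowest in control replicates 3 and 4, at -0.42 and -0.45.

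Of the 27 other S100, annexin and galectin genes in the annotation, 13 were tested and none passed an adjusted p of 0.05 in edgeR, with 3 at an unadjusted p under 0.05, 1 call by DESeq2 and 2 by limma-voom. Over all genes these shares were 2.83%, 16.0%, 7.88% and 6.68%. Most of the S100 genes between the members on chromosome 3 were near silent: S100a14, S100a16, S100a3, S100a2 and S100a5, named for their position, averaged 0.0158 to 0.207 CPM. None of the 11 other S100 genes exceeded 10 CPM. S100a1, which starts 43 bp from S100a13 on the opposite strand, averaged 3.94 CPM. Of the 9 other annexins 4 exceeded 10 CPM. Anxa5, a binder of exposed phosphatidylserine, averaged 170.2 CPM (log2 fold change -0.01, 95% interval -0.21 to 0.19), Anxa7 115 CPM (-0.07) and Anxa11 25.0 CPM (0.23). Anxa11 has strand columns that sum to 1.47 times its unstranded count, so its value is uncertain. Anxa4 averaged 51.6 CPM with a log2 fold change of -0.32 (SE 0.11; edgeR, adjusted p 0.177) and passed only in limma-voom (adjusted p 0.0396). Of the 7 other galectins 4 exceeded 10 CPM: Lgals9 at 244 CPM (0.07), Lgals8 at 79.8 CPM (0.05), Lgals4 at 20.4 CPM (-0.11) and Lgalsl at 19.0 CPM. Lgalsl, a galectin-related protein, was at 16.4, 24.6, 22.6 and 26.2 CPM in control and 15.3, 18.1, 14.9, 16.4 and 16.8 CPM in DKO. Control replicate 1 was the lowest control and lay within the DKO range. The log2 fold change of Lgalsl was -0.46 (SE 0.14; edgeR, adjusted p 0.104), and -0.60 without control replicate 1 (adjusted p 0.00573, edgeR). Lgalsl also passed with all libraries in DESeq2 (adjusted p 0.0246), in limma-voom (adjusted p 0.00355) and with 1 surrogate variable (adjusted p 0.0148, edgeR). Without both control replicates 1 and 3 it passed too (adjusted p 0.0104, edgeR), and in the remaining alternatives it did not.

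Binding partners and receptors of the 3 families were counted next. Of 17 such genes 12 were tested, and 2 fell in DKO and none rose (edgeR, adjusted p under 0.05), with a median log2 fold change of -0.06. Lgals3bp encodes a secreted glycoprotein that binds galectin-3. It was at 218, 226, 229 and 299 CPM in control and at 137, 155, 152, 166 and 163 CPM in DKO. Every control library lay above every DKO library. In edgeR the log2 fold change was -0.65 (SE 0.10, adjusted p 0.00823), and it passed the threshold in each of the 19 alternatives (adjusted p 1.7e-06 to 0.046). Cd7 encodes a surface glycoprotein known as a receptor of galectin-1. It was at 174, 122, 94.2 and 140.0 CPM in control and at 79.5, 89.3, 82.0, 87.5 and 69.5 CPM in DKO, with no overlap. The log2 fold change was -0.70 (SE 0.15; edgeR, adjusted p 0.0345). Cd7 lost the threshold without control replicate 2 or 4 or without any 1 of the 5 DKO replicates (adjusted p 0.0548 to 0.0963, edgeR), while its log2 fold change stayed between -0.65 and -0.74. Counted by strand, its 2 columns together held 1.67 times the reads used here, and 10.8% of its exon bases are shared with Gm11775 (named after its values were seen) on the opposite strand, so part of its reads was not counted. With the strand columns summed, the log2 fold change of Cd7 was -0.71 (adjusted p 0.0344).

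**Figure D5:**
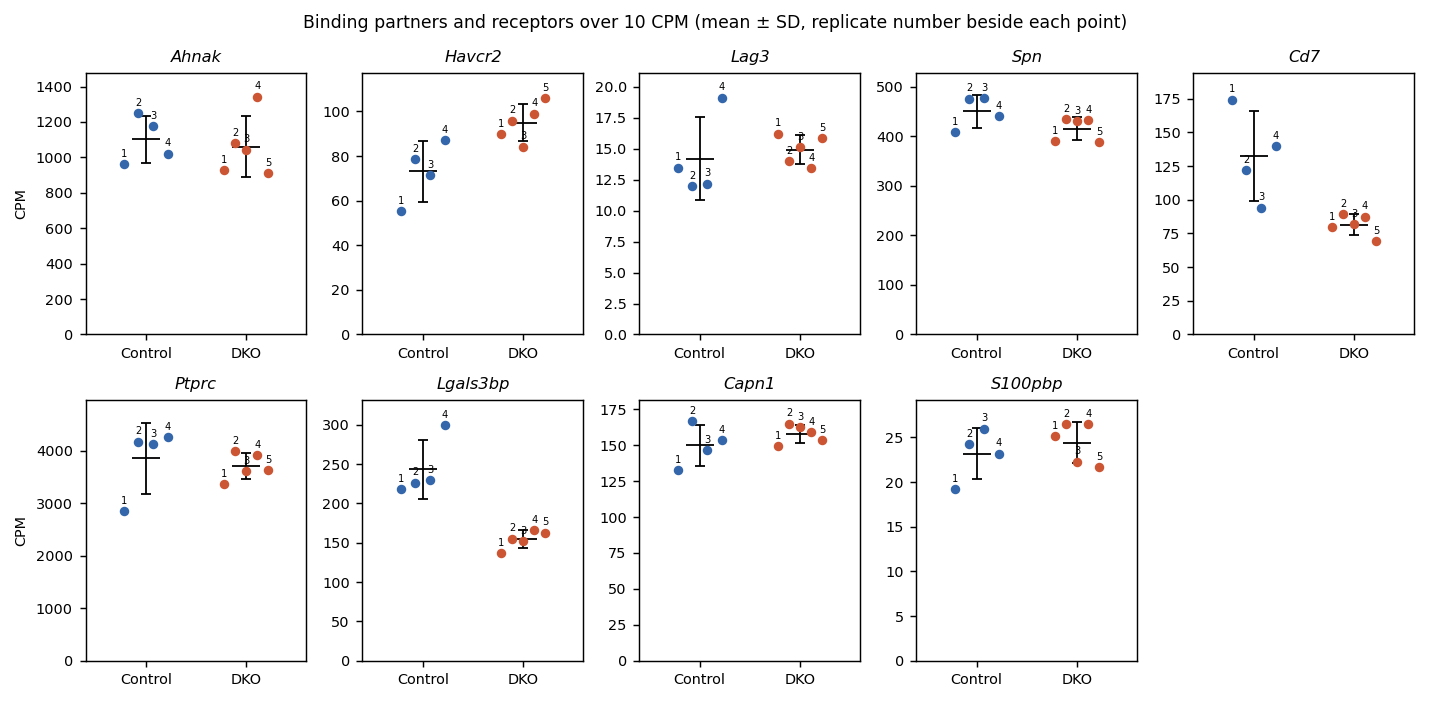
CPM (vertical axes, from 0) of the 9 binding partners and receptors that averaged over 10 CPM, in 4 control (blue) and 5 DKO libraries (orange), with replicate numbers and mean ± SD. All control libraries lie above all DKO libraries for Lgals3bp and Cd7, and the groups overlap for the other 7 genes. Over all genes tested, 8.71% had groups that did not overlap.

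The other partners did not pass the threshold in edgeR. Havcr2, an inhibitory receptor reported to bind galectin-9, was at 55.3, 78.5, 71.3 and 87.3 CPM in control and 89.7, 95.9, 84.2, 99.0 and 105.9 CPM in DKO. Only DKO replicate 3 lay below the highest control library. Its log2 fold change was 0.38 (SE 0.13; edgeR, adjusted p 0.155), and 0.25 without control replicate 1. Spn and Ptprc, which encode the heavily glycosylated CD43 and CD45, had log2 fold changes of -0.12 and -0.06. Ahnak, a giant scaffold bound by S100a10 and annexin A2, was at 961 to 1248 CPM in control and at 909.9 to 1343 CPM in DKO. The formyl peptide receptor genes had almost no counts: Fpr1 was at most at 0.376 CPM and Fpr3 had none (both named after their values were seen). Capn1, a calcium-dependent protease, was at 133 to 167 CPM in control and 149.6 to 165 CPM in DKO (log2 fold change 0.08). S100pbp, which encodes an S100-binding protein, and Lag3, an inhibitory receptor reported to bind galectin-3, had log2 fold changes of 0.08 and 0.07. Among 10 genes that mark effector differentiation, of which Ahnak is also a partner, none passed in edgeR, with 3 at an unadjusted p under 0.05, 1 call by DESeq2 and 3 by limma-voom. Over all genes these shares were 2.83%, 16.0%, 7.88% and 6.68%. The median log2 fold change of the 10 was -0.02. The DESeq2 call was Klrg1 (named after its values were seen), at 624 to 750 CPM in control and 491 to 611 CPM in DKO. Its groups did not overlap, which held for 8.71% of all genes. The log2 fold change of Klrg1 was -0.29 (adjusted p 0.125, edgeR). The limma-voom calls were Klrg1, Cx3cr1 and Emp3. With 1 surrogate variable 4 of the 10 passed, where 8.37% of all genes did. Klrg1 and Cx3cr1 were then lower in DKO, and Vim and Emp3 higher. Without control replicate 1, 2 of the 10 passed, Cx3cr1 and Emp3, where 4.93% of all genes did. Cx3cr1, Vim and Emp3 are named after their values were seen. The log2 fold change of Cx3cr1 was -0.38 with all libraries (adjusted p 0.163, edgeR) and -0.54 without control replicate 1 (adjusted p 0.000668, edgeR). That of Emp3 was 0.16 (adjusted p 0.478, edgeR) and 0.25 (adjusted p 0.0371).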

How the data were processed

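RNA from sorted CD8+ T cells was made into polyA libraries with a Takara Smartseq v4 and Illumina Nextera Flex protocol, per the labels' protocols. The authors trimmed reads with Trim Galore 0.6.0, aligned them to mm10 with STAR 2.7.8a, per the submitters' processing notes, and deposited unnormalized counts per gene in STAR's layout. For annotation and read length nothing was stated in the labels or headers. The unstranded column was used. It leaves out reads in more than 1 gene or place. Counts outside genes were left out of library sizes. Symbols, lengths and coordinates came from GENCODE M21 (GRCm38), in which 55230 of 55471 identifiers were found after dropping the version, and promoters from RefSeq.

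DKO was compared with control by edgeR 4.0.16's quasi-likelihood test (TMM scaling, filterByExpr with a minimum count of 10, threshold an adjusted p of 0.05 by Benjamini-Hochberg over all 14918 genes tested). CPM uses TMM library sizes. Named were the 10 members, other family genes and partners averaging over 10 CPM or past the threshold, effector genes past it, the targeted genes, and the 3 genes most like the member with the smallest p. Outside this rule are the S100 genes named for their position on chromosome 3, marker genes of other cells, and genes said to be named after their values were seen. The members and lists were chosen with earlier results of these data known. Alternatives were DESeq2 1.42.0 and its size factors, limma 3.58.1 (voom), 2 other filters, summed strand columns, a replicate block, the omission of each library in turn, and 1 surrogate variable from sva 3.50.0. Chosen after seeing the data were removal of the length trend (lowess span 0.3) and leaving out both control replicates 1 and 3. In simulated data for this comparison, 200 genes differed by 1 on the log2 scale. Each gene was drawn on its own, so these data held no length trend and no library that stands apart. The shares that follow may therefore not hold for the real libraries. Of these 200 genes edgeR called 58%, and 7.2% of its calls were false (14611 genes tested). DESeq2 called 66.5% of them, and 21.8% of its calls were false (14918 genes tested). The values for limma-voom were 57% and 5.79% (14611 genes tested). The share called among genes that differ by less than 1, as the members do, was not tested.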

Additional observations from a re-analysis of the deposited data

Results flagged for a closer look

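In 28 groups of libraries checked (14 genes in 2 groups), 2 held a library whose distance from its nearest neighbour was an unusually large part of the group's range. Chance gives this in about 1 of 20 groups. S100a13 in control replicate 1 was at 234 CPM, where the other controls lay between 124.4 and 137.6 CPM. Lgals3bp in control replicate 4 was at 299.2 CPM, where the other controls lay between 218.3 and 229.1 CPM. Without that library the log2 fold change of Lgals3bp was -0.54 with an adjusted p of 0.0164 in edgeR.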

How the results depend on the processing

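Of 190 values of the 10 members over 19 alternatives, 179 kept their direction and their side of the threshold, 3 (all Anxa1) passed it, and 8 changed sign. The sign changes were S100a13 at 0.05 in limma-voom, 0.02 with 1 surrogate variable, 0.12 without control replicate 1, 0.03 with the length trend removed and 0.07 without both control replicates 1 and 3. S100a11 was at 0.02 with the length trend removed, Anxa6 at -0.0039 without both control replicates 1 and 3, and Lgals1 at -0.02 without control replicate 3. On leaving out 1 library at a time, S100a13 ranged from -0.21 to 0.12 and Lgals1 from -0.02 to 0.19. The cause was not tested.

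Over all genes the count past the threshold was 422 in edgeR, 1038 in DESeq2, 996 in limma-voom and 1248 with 1 surrogate variable, and 179 to 749 on leaving out 1 library. Among the members it was 1 in limma-voom, 1 with a surrogate variable, and 0 to 1 on leaving out 1 library. Among the other family genes it was 1 in DESeq2, 2 in limma-voom, 1 with a surrogate variable, 1 without both control replicates 1 and 3, and 0 to 1 on leaving out 1 library. Among the partners it was 1 to 2 on leaving out 1 library.

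Deviations of same-numbered libraries correlated at -0.117 to 0.0124, and none of the 4 control libraries correlated best with its own number. The best correlations were also weak, at 0.0564 to 0.155, so this check cannot tell whether replicate numbers pair the samples. With the replicate block the counts were 67 over all genes, 0 among the members and 1 among the partners, Cd7 having an adjusted p of 0.168 in edgeR. The lowest count of a member in a library was 651, for S100a4, which is a counting error of 3.92%.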
